A study of Mus musculus with 12 samples.

Results

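Atp5d, Usmg5, Minos1, Myeov2 and Gstp2 are 5 genes that were selected on measured values of these arrays: each was called higher in cKO than in WT mice by the study, and within WT the mice were spread widely and in a like way. They are 5 of 37 genes named here, out of 22206 probe sets on the array, a probe set being the group of short probes whose joint signal stands for a transcript. Nucleus pulposus (NP) tissue, the gel-like core of the intervertebral disc, was compared between 6 cKO mice and 6 WT mice, with 1 Mouse Clariom S array per mouse. The cKO mice carried K19CreERT and 2 floxed Glut1 alleles (Glut1 fl/fl), so that tamoxifen switches on Cre recombinase in cells that use the Krt19 promoter, an NP marker, and deletes Glut1 (Slc2a1), the glucose transporter. WT mice were Glut1 fl/fl littermates without Cre. Every mouse of both genotypes, controls included, had tamoxifen at 3 months of age on 3 days in a row (100 µg per g body weight), and NP tissue, pooled over the discs of a mouse, was taken at 9 months. Cre is confined to cells with an active Krt19 promoter, so other cells of the dissected tissue keep Glut1.

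Of the 5 genes, 3 act in mitochondria. Atp5d encodes the delta subunit of the F1 part of ATP synthase, the enzyme of the inner mitochondrial membrane that makes ATP as protons flow through it. Usmg5 (Atp5md) encodes a small membrane subunit associated with the same enzyme. Minos1 (Micos10) encodes a subunit of MICOS, the complex that shapes the junctions of the cristae, the folds that carry ATP synthase. Myeov2 (Cops9) encodes the smallest subunit of the COP9 signalosome, which removes the modifier NEDD8 from cullin ubiquitin ligases. Gstp2 encodes a pi-class glutathione transferase, an enzyme that joins glutathione to reactive compounds. NP cells live without a direct blood supply, at low oxygen, and are known to rely mainly on glycolysis for ATP.

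The genes lie on 4 chromosomes. In the RefSeq annotation of GRCm38.p6, all 5 were matched, 3 of them through an older symbol, and the chromosome coded in the probe set identifier was the annotated chromosome for 5 of 5. Atp5d spans chr10:80138698-80145828 on the plus strand. The other genes lie on the minus strand, Usmg5 at chr19:47083471-47090647, Minos1 at chr4:139101814-139131113, Myeov2 at chr1:92637145-92641985 and Gstp2 at chr19:4040288-4042221. Gstp2 is flanked by its paralogs Gstp1 (chr19:4035411-4037912) and Gstp3 (chr19:4057470-4059605). Paralogs can be alike in sequence and the probe positions were not used here, so the signal of the Gstp2 probe set may include theirs. Because the 5 genes varied together in WT, the 250 bases before a RefSeq start site were searched on both strands for 5 short motifs, which were chosen after the stretches had been read. They were CCGGAAG, which ETS factors bind, the CCAAT box, the letters TATAA of a TATA box, TGAGTCA as bound by AP-1, and the motif of NRF1. No motif was found in all 5 genes, and the stretch of Atp5d (chr10:80142025-80142274), which lies inside the annotated gene span, held none of them. RefSeq lists a second start site for Atp5d, Minos1 and Myeov2, which was not searched, so the counts hold for the first listed site only. The 4 stretches with a match are shown because they show that Minos1 and Myeov2 hold a motif other than those of Usmg5 and Gstp2. Capitals mark the matches, and each stretch reads 5′ to 3′ on the strand of the gene.
Usmg5 (chr19:47090648-47090897): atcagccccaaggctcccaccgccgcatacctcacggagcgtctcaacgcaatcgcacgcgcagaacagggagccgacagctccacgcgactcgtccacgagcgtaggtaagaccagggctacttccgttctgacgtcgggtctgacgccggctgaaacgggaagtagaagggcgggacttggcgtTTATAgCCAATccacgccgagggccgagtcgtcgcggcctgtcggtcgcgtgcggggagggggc
Minos1 (chr4:139131038-139131287): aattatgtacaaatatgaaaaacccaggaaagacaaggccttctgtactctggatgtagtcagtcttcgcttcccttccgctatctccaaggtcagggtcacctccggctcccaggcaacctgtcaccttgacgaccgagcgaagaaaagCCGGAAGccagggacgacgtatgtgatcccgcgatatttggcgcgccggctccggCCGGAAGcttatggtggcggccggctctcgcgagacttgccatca
Myeov2 (chr1:92641949-92642198): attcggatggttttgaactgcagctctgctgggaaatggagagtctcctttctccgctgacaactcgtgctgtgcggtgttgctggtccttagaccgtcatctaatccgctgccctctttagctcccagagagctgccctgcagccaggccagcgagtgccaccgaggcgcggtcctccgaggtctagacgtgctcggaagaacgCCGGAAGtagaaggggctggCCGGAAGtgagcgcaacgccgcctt
Gstp2 (chr19:4042222-4042471): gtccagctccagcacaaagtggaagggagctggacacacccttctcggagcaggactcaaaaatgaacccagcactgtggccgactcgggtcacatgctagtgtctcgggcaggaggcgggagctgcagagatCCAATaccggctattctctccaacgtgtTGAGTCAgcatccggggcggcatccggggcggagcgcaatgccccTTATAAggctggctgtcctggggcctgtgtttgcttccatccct
CCGGAAG occurred 2 times in Minos1 (starting 100 and 45 bases before the start site) and 2 times in Myeov2 (45 and 25 bases), hence in 2 of 5 genes, and 7.05% of 27025 annotated genes hold it in a stretch of this length. TATAA occurred in Usmg5 (64 bases before, on the opposite strand) and in Gstp2 (43 and 44 bases, 2 overlapping matches on opposite strands), and 23.5% of all genes hold it. CCAAT was found in the same 2 genes, against 34.5% of all genes. TGAGTCA was found in Gstp2, 89 bases before its start site (4.43% of all genes), and the NRF1 motif in none of the 5 (3.86%). The stretches of Minos1 and Myeov2 run in part into their annotated gene spans. In each, the CCGGAAG nearer the start site lies inside the span. A match describes letters only and says nothing of whether a factor binds there. Since the motifs were chosen with the stretches in view, nothing is read from these shares.

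All values are log2 signals, which serve to compare mice for 1 probe set and not the abundance of different genes. The deleted gene was lower in every cKO mouse. Slc2a1 was 17.97 ± 0.21 in cKO and 19.16 ± 0.16 in WT (SD, n = 6 each), a difference of -1.19 (standard error 0.13, adjusted p = 0.00327 from limma), and it was the 1 probe set of 22206 (0.0045%) to pass an adjusted p of 0.05. Array medians lay between 6.56 and 6.62 in cKO and between 6.55 and 6.66 in WT, and no 2 arrays held identical values. Names were used for 37 genes only, and of the marker genes of other cell types Dcn alone was among them, so the makeup of the dissected tissue was not analysed here, nor were the further subunits of ATP synthase (2 of 20 named, both described here), of MICOS (1 of 11), of the COP9 signalosome (1 of 10), or other glutathione transferases (1 of 23). In tissue RNA, fewer cells of a type and less RNA per cell cannot be told apart. The limma p-values weigh a difference of means against the spread between these mice, and 6 arrays per genotype limit the precision.

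Each of the 5 genes had a higher mean in cKO, by 0.62 to 0.87 on the log2 scale, and in each the 4 WT mice numbered 3 to 6 lay below every cKO mouse while WT mice 1 and 2 did not. The ATP synthase gene Atp5d was at 12.67, 12.93, 12.82, 12.48, 11.94 and 11.67 in cKO mice 1 to 6, against 12.51, 12.80, 11.07, 11.05, 11.22 and 11.63 in WT mice 1 to 6. WT mice 1 and 2 lay inside the cKO range, and the highest of the other WT mice lay 0.04 below the lowest cKO mouse. The numbers are names of mice within a genotype and carry no order.

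Usmg5, the other ATP synthase gene, was at 13.63, 13.62, 13.23, 12.96, 12.94 and 12.67 in cKO mice, against 13.27, 13.73, 12.12, 12.15, 12.06 and 11.88 in WT mice. Here WT mouse 2 exceeded every cKO mouse, and the other 4 WT mice were within 0.27 of each other. Minos1 was at 14.43, 14.57, 14.20, 13.94, 13.75 and 13.60 in cKO mice, against 14.10, 14.62, 13.12, 12.75, 13.02 and 13.15 in WT mice. The cristae gene thus showed the same split, with WT mouse 2 again at the top.

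Myeov2 of the COP9 signalosome was at 13.89, 14.06, 13.63, 13.23, 12.97 and 12.63 in cKO mice, against 13.67, 13.98, 11.70, 11.90, 12.27 and 11.92 in WT mice. Gstp2 was at 11.76, 11.17, 11.49, 11.36, 10.71 and 10.61 in cKO mice, against 11.57, 11.70, 9.22, 9.97, 10.11 and 9.31 in WT mice. For both genes WT mice 1 and 2 were inside the cKO range, and a gap of 1.4 (Myeov2) or 1.46 (Gstp2) parted them from the next WT mouse. That gap was 0.88 for Atp5d, 1.12 for Usmg5 and 0.95 for Minos1. Gstp2 had the widest spread of WT mice 3 to 6 (SD 0.45, n = 4) and Usmg5 the narrowest (SD 0.12, n = 4).

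**Figure D1:**
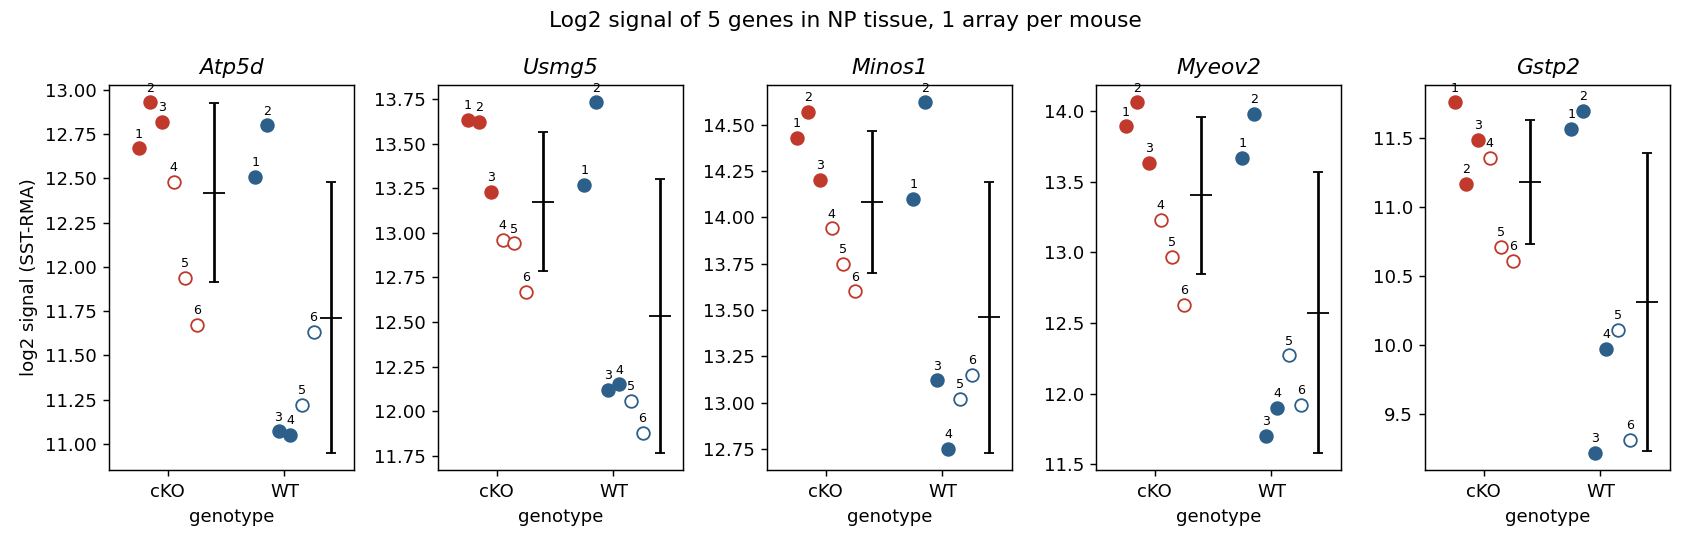
Log2 signal (vertical axes, 1 panel per gene, each with its own scale) in cKO (left, red) and WT (right, blue) mice. Points are single mice with their numbers, filled where the mean Y-coded signal is high and open where it is low, and the black bars give the mean and SD (n = 6 each). In each panel WT mice 3 to 6 lie below every cKO mouse, and WT mice 1 and 2 lie among or above the cKO mice.

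The group means were 12.42 ± 0.51 in cKO and 11.71 ± 0.76 in WT for Atp5d, 13.18 ± 0.39 in cKO and 12.54 ± 0.77 in WT for Usmg5, 14.08 ± 0.38 in cKO and 13.46 ± 0.73 in WT for Minos1, 13.40 ± 0.55 in cKO and 12.57 ± 0.99 in WT for Myeov2, and 11.18 ± 0.45 in cKO and 10.31 ± 1.08 in WT for Gstp2 (SD, n = 6 each). The differences of means, cKO minus WT, were 0.71 for Atp5d (standard error 0.32), 0.64 for Usmg5 (0.30), 0.62 for Minos1 (0.29), 0.83 for Myeov2 (0.39) and 0.87 for Gstp2 (0.40). Since these genes were selected on this contrast, the differences are a description. None passed the adjustment over all 22206 probe sets in the limma fit, where the adjusted p was 0.929 for each. Their unadjusted limma p-values, 0.0418 for Atp5d to 0.0496 for Usmg5, all lay just inside the selection threshold of 0.05. At that threshold 2.43% of all probe sets were higher in cKO, and 0.405% were also at least 1.5-fold higher. At least 4 WT mice below every cKO mouse, as in 5 of these 5 genes, was the case for 4.24% of all probe sets. This contrast chose the genes, so nothing is read from these shares.

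The size of the difference turned on how the WT mice were averaged. Tukey biweight averages give less weight to values far from the median. They put the difference at 1.09 for Atp5d, 1.09 for Usmg5, 1.01 for Minos1, 1.46 for Myeov2 and 1.02 for Gstp2. All of these were at least 2-fold, where no difference of plain means reached 2-fold. The calls of the study, which chose the genes, also required a 2-fold change, so nothing is read from their reaching it. Without WT mice 1 and 2 the differences of means were 1.18, 1.12, 1.07, 1.45 and 1.53 in the same order of genes (adjusted p between 0.0965 and 0.107 from limma). Leaving out the highest WT mice had to widen them.

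The spread within WT was the larger in each gene. The SD of the 6 WT mice was 1.51 times that of the 6 cKO mice for Atp5d, 1.96 times for Usmg5, 1.90 times for Minos1, 1.79 times for Myeov2 and 2.41 times for Gstp2. Over all probe sets the median SD was 0.250 in cKO and 0.322 in WT, and 68.8% of them had the larger SD in WT. The 5 genes were among the more variable in both genotypes: their SD exceeded that of 84.6% to 96.2% of probe sets in cKO and of 96.6% to 98.9% in WT. The WT spread is a value on which they were chosen.

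Among cKO mice, 5 of the 10 pairs of genes passed a test of correlation. The stated choice of genes rested on the WT spread and the contrast, but earlier results of these data were known. In cKO the Pearson correlation over the 10 pairs averaged 0.872 (0.724 to 0.995, n = 6 mice), and in WT it averaged 0.938 (0.867 to 0.974, n = 6 mice). The closest pair in cKO was Minos1 and Myeov2 (r = 0.995, Spearman rho = 1, adjusted p = 0.00926 for r and 0.0278 for rho, exact two-sided permutation over 720 pairings, adjusted over 10 pairs). Both put the 6 cKO mice in the same order. Usmg5 correlated with Minos1 at r = 0.978 and with Myeov2 at r = 0.974 (rho = 0.943, adjusted exact permutation p = 0.00926 for r and 0.0333 for rho in each pair). The unadjusted p of these 3 pairs, 0.00278, is the smallest that 6 mice allow.

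Atp5d correlated in cKO with Myeov2 (r = 0.945, adjusted exact permutation p = 0.0104) and Minos1 (r = 0.923, p = 0.0194), with rho = 0.943 and p = 0.0333 in each. Its correlation with Usmg5 (r = 0.851, rho = 0.829) did not pass (adjusted exact permutation p = 0.0741 for r and 0.0833 for rho). In all, 5 of 10 pairs passed, by r as by rho, none of them with Gstp2. As background, 1.13% (Gstp2) to 1.75% (Atp5d) of the 20866 autosomal probe sets reached an r of 0.9 with a given one of the 5 genes in cKO, as did the 5 pairs that passed. The 4 pairs with Gstp2 had r of 0.724 to 0.816 and rho of 0.60 to 0.829 (adjusted exact permutation p of 0.0833 to 0.110 for r and 0.0833 to 0.242 for rho), and whether they differ from the other pairs was not tested. cKO mouse 2 was the highest or second highest cKO mouse for the other 4 genes and the fourth highest for Gstp2.

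In each cKO pair, the 2 mice farthest from the median of the gene named first were left out, so the mice left differed between pairs. Over the remaining 4, r ran from -0.34 (Atp5d with Gstp2) to 0.998 (Minos1 with Myeov2). The other pairs were at 0.65 or above, including Usmg5 with Minos1 (0.956) and with Myeov2 (0.975). For Usmg5, Minos1 and Myeov2 with Gstp2 (0.825 to 0.931), cKO mouse 2 was among the mice left out. With the same 2 mice left out of every pair, those farthest from the median of the mean of the 5 genes, the correlations averaged 0.499. In WT the relation rested on mice 1 and 2: over the other 4 mice the 10 correlations ran from -0.997 to 0.77 with a mean of -0.11, and over all 6 mice the Spearman coefficients averaged 0.691 (0.43 to 0.94). The WT mice thus formed a high pair and a low group of 4, too few for a coefficient within either.

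**Figure D2:**
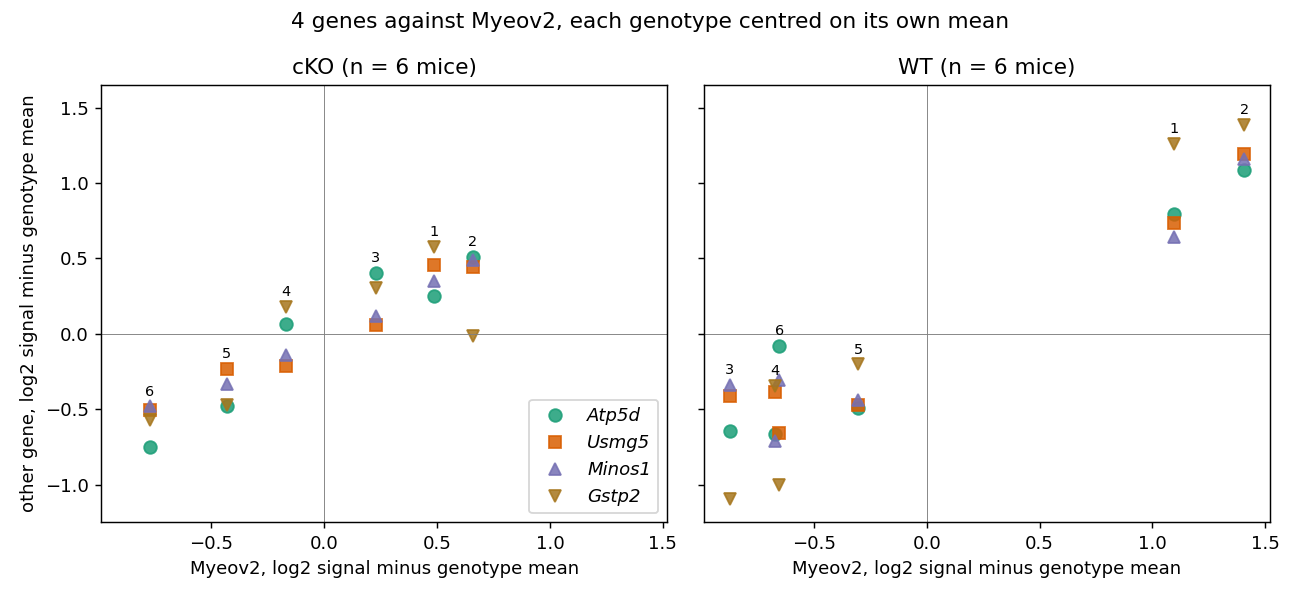
Log2 signal minus the genotype mean of Atp5d, Usmg5, Minos1 and Gstp2 (vertical axis) against that of Myeov2 (horizontal axis), in cKO (left) and WT (right). Each column of 4 symbols is 1 mouse, with its number above. cKO mice are spread along a line from mouse 6 to mouse 2, with Gstp2 of mouse 2 off it, while in WT mice 1 and 2 stand apart from the other 4.

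The values in cKO mice also ran with the signal of Y-coded probe sets. The paper lists males and females in both genotypes of this cross, and the sex of each mouse was not used here. The mean log2 signal of the 219 probe sets with a Y chromosome code in their identifier was 7.46 to 8.16 in cKO mice 1 to 3 and 7.88 to 8.70 in WT mice 1 to 4, and 5.43 to 5.51 in cKO mice 4 to 6 and WT mice 5 and 6. Within cKO, the 3 mice of high Y-coded signal lay above the 3 of low signal for Atp5d (by 0.78 in the mean), Usmg5 (0.64), Minos1 (0.64) and Myeov2 (0.92). Of all probe sets without the Y code, 5.93% showed this. For Gstp2 these sets of mice overlapped (10.61 to 11.36 in the low set and 11.17 to 11.76 in the high set). Within WT, only Usmg5 was higher in all 4 mice of high signal than in both of low signal. With 3 cKO mice in each set, the correlations could not be recomputed within them, and the part of the Y-coded signal in the cKO correlations was not tested.

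Among the 5 arrays of low Y-coded signal, which leave out WT mice 1 and 2, the 3 cKO mice lay above both WT mice for 5 of 5 genes. This follows from WT mice 3 to 6 lying below every cKO mouse, so nothing is read from it beside the 10.6% of all probe sets that showed the same. The differences were 0.61 for Atp5d, 0.89 for Usmg5, 0.68 for Minos1, 0.85 for Myeov2 and 1.18 for Gstp2. Among the 7 arrays of high signal they were 0.95, 0.68, 0.75, 1.05 and 0.86 in the same order, and the genotypes overlapped for all 5 genes through WT mice 1 and 2. In neither set did any of the 5 pass an adjusted p of 0.05 (limma, adjusted p of 0.903 for each gene at low and 0.999 at high signal). This split was made after the data were seen.

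The 5 genes were next set against the main axis of variation of the arrays, the first principal component after centring each genotype, computed over 20866 probe sets that are autosomal and not in the table of calls. It held 27.6% of the variance. The sign of a component is arbitrary, and it was set so that the mean of the 5 genes ran positively with it. Nothing is therefore read from the positive direction of that relation. Its scores were 17.2, -4.79, 0.20, 7.27, -1.57 and -18.3 in cKO mice 1 to 6, against 31.4, 46.6, -48.4, -15.7, 1.84 and -15.7 in WT mice 1 to 6. WT mice 2 and 3 marked its ends, and cKO mice covered a narrower stretch. Among WT mice all 5 genes ran with the component, at r = 0.889 for Atp5d, 0.860 for Usmg5, 0.837 for Minos1, 0.946 for Myeov2 and 0.948 for Gstp2 (n = 6), and Gstp2 ranked the WT mice exactly as the component did (rho = 1). An r at least as high was found in WT for 2.00% of the autosomal probe sets in the case of Gstp2, 2.11% for Myeov2 and 5.77% to 9.24% for the 3 mitochondrial genes, and 5.06% of them reached 0.9. A negative r at least as strong as 0.9 was found for 2.55% of these probe sets. For the mean of the 5 genes r was 0.926 in WT, and 0.964 without mice 2 and 3.

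Among cKO mice the relation did not pass the test for any of the 5 genes. There r was 0.560 for Atp5d (rho = 0.257), 0.590 for Usmg5 (rho = 0.60), 0.524 for Minos1 (rho = 0.371) and 0.571 for Myeov2 (rho = 0.371), each with an adjusted exact permutation p of 0.290 for r and of 0.604 to 0.658 for rho over the 5 genes. Gstp2 reached r = 0.843 and rho = 0.886 (exact permutation p = 0.0292 and 0.0333, adjusted 0.146 and 0.167). Without the 2 cKO mice farthest along the component (1 and 6), r was -0.19 to -0.69 for the first 4 genes and 0.41 for Gstp2, so the positive values of those 4 genes rested on these mice. Of the autosomal probe sets, 1.02% reached 0.9 in cKO, and 0.901% had a negative r at least as strong. Whether the correlation with the component differs between cKO and WT was not tested.

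**Figure D3:**
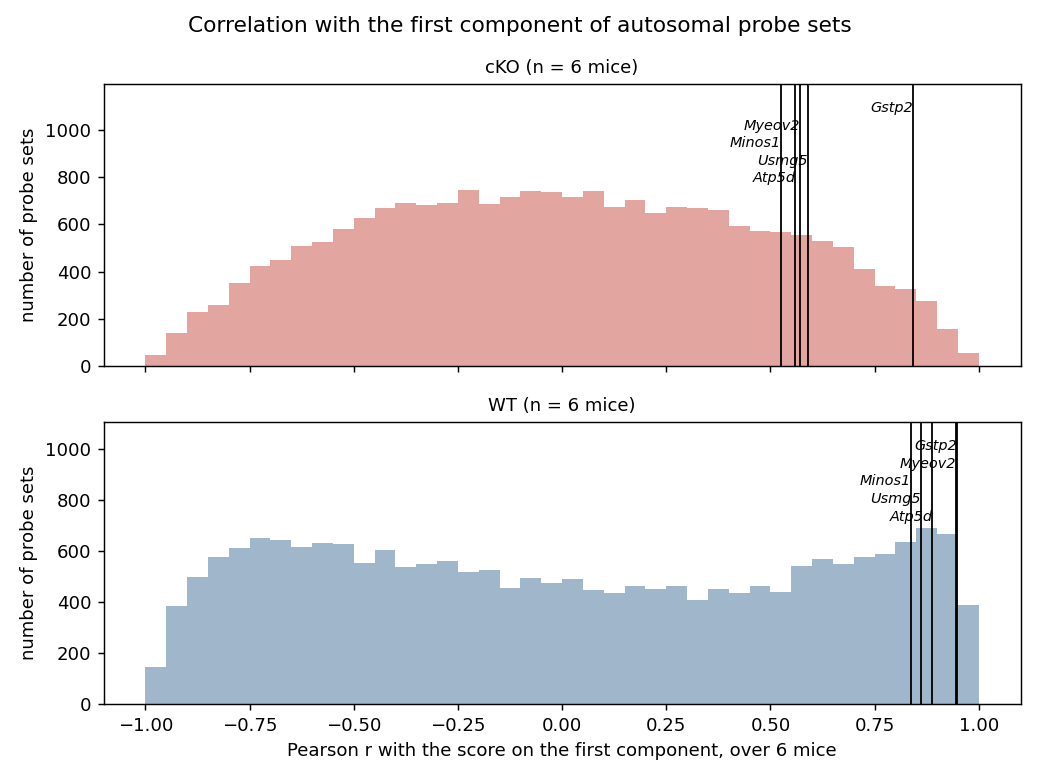
Number of autosomal probe sets (vertical axis, 20866 in each panel) by their Pearson r with the first component score (horizontal axis) over 6 cKO mice (top) and 6 WT mice (bottom). Vertical lines mark the 5 genes, which lie at 0.837 to 0.948 in WT, and at 0.524 to 0.590 in cKO except for Gstp2 at 0.843.

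Computed on cKO mice alone, the first component (28.2% of the variance) was another axis, with mouse 2 at one end (38.0) and mouse 5 at the other (-24.5). Along it r was 0.862 for Atp5d, 0.856 for Usmg5, 0.931 for Minos1 and 0.906 for Myeov2, and 0.533 for Gstp2. In cKO mice, then, Gstp2 had its higher r with the axis led by WT mice, and the other 4 genes with the axis of cKO mice. Computed on WT mice alone (40.5% of the variance), the component left the order of the genes as it was, at 0.813 (Minos1) to 0.938 (Gstp2).

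Bright probe sets in general followed the component in WT. From the lowest to the highest of 4 equal groups by mean signal, the median r there was -0.31, -0.29, 0.32 and 0.42, and 0.288%, 1.27%, 7.32% and 11.4% of probe sets reached 0.9. Among the 2577 probe sets within the signal range of the 5 genes, 1.71% reached 0.9 in cKO and 11.7% in WT. The SD over all probe sets of an array, a measure of its contrast, was 3.05 to 3.13 in cKO mice, against 2.91 to 3.13 in WT mice, where mice 1 and 2 (3.11 and 3.13) had the highest values. WT mouse 3, lowest along the component, had the lowest contrast, and the part of array contrast in the WT spread was not tested. With the component score as a covariate, which leaves the differences as they were, the standard error of the Gstp2 difference was 0.17 and its adjusted p was 0.20. The adjusted p of the other 4 genes was 0.381 to 0.469 (limma).

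**Figure D4:**
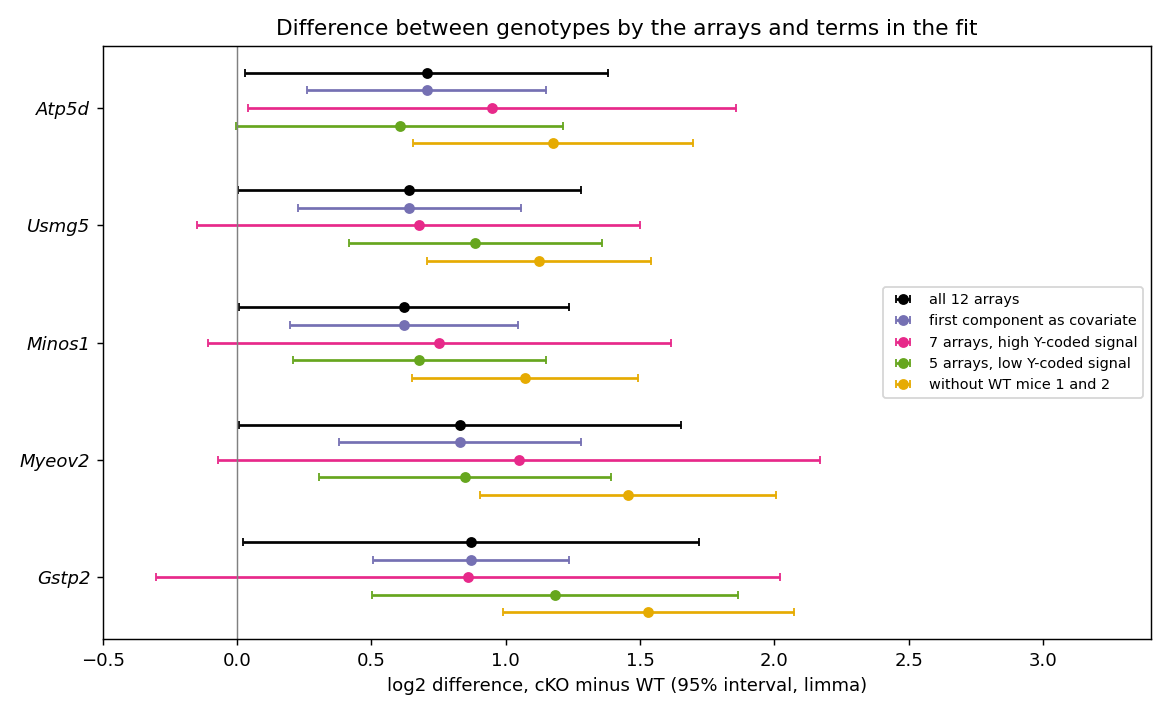
Difference of means in log2 signal, cKO minus WT (horizontal axis, points, with 95% intervals from limma), of the 5 genes (rows) with all 12 arrays (black), with the first component as a covariate (purple), with the 7 arrays of high (pink) or the 5 of low Y-coded signal (green), and without WT mice 1 and 2 (yellow). All points lie above 0, between 0.61 and 1.53, and leaving out WT mice 1 and 2 gives the highest point for each gene.

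The genes most like these 5 were sought by their r with the mean of the 5 over 12 genotype-centred arrays. Each of the 5 had r of 0.901 (Gstp2) to 0.990 (Myeov2) with the mean of the other 4. Of the autosomal probe sets outside the table of calls, 1.55% reached 0.9. Among the other named genes reported here, all from the table of calls, Dbp (a transcription factor under clock control) had the highest value, r = 0.850, followed by Ptgds (a prostaglandin D synthase) with 0.793. Within genotypes, Dbp had r of 0.703 in cKO and 0.947 in WT, and Ptgds 0.958 in cKO and 0.792 in WT (n = 6 mice each). Both were higher in cKO on average, Dbp by 0.87 and Ptgds by 1.05. Dcn, Dnajb13, Serpina3n, Slc38a4, Wdr83, Pttg1 and Ier3 followed at r of 0.50 to 0.61. Of these, Dcn (-1.66), Serpina3n (-1.05) and Ier3 (-0.87) were lower in cKO on average, unlike the 5 genes, and the others were higher. Wdr83, Dnajb13 and Ier3 were alike the 5 genes in WT (0.889, 0.919 and 0.940) but little or not in cKO (-0.27, -0.04 and 0.26). Pttg1 had r of 0.63 in WT and 0.09 in cKO.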

How the data were processed

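NP RNA of 6 cKO and 6 WT mice was measured on Mouse Clariom S arrays. The authors normalized the scans together by SST-RMA in Expression Console and deposited log2 values for 22206 probe sets. Their table of calls, the one source of probe set names used here (39, of which 37 with 1 symbol), also holds the authors' averages, fold changes and p-values, which were not used. The genes and lists described here were chosen with earlier results of these data known.

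cKO was compared with WT over all probe sets with limma 3.58.1 (lmFit and eBayes, R 4.3.3), without covariates or a filter, with Benjamini-Hochberg adjustment. The fit was tested on simulated data. Within genotypes, Pearson and Spearman coefficients were computed in Python 3.11.15 with numpy 2.4.6, with exact permutation over 720 pairings in cKO only. The chromosome code of the identifier selected autosomal and Y-coded probe sets. Named genes are the 5, Slc2a1 and the 10 named genes with the highest r with the mean of the 5, of which 1 is not reported here. Of 17 gene lists, 7 had any named member, among them Eno2 (glycolysis, 1 of 19), Slc2a1 (NP cells, 1 of 11) and Dcn (annulus and cartilage, 1 of 12).

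The alternatives were other normalizations, filters on dim probe sets, array weights, covariates, left-out mice, Tukey biweight averages, an exact permutation test, and other forms of the component. Fits on only the arrays with high, or only those with low, Y-coded signal were added after seeing the data. cKO and WT mice of the same number deviated together at r of -0.06 to 0.25, over 0.1 in 2 of 6, so the numbers were not taken as pairs.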

Additional observations from a re-analysis of the deposited data

How the results depend on the processing

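The differences of the 5 genes stayed above 0 in all 130 alternative values, and the lowest adjusted p that any of them gave was 0.0965 (limma, without WT mice 1 and 2). Some alternatives leave a difference of means as it is, among them the filters, the replicate block, the component covariate and the permutation test. The genes were also chosen as higher in cKO, so the count is no support for the direction. Leaving out 1 mouse at a time, the median difference of the 5 ran from 0.57 to 0.92. With the replicate number as a block (replicate block, not a pairing by design), the differences were the same, the standard errors were 0.17 to 0.29 and the adjusted p was 0.755 to 0.766, and 249 probe sets passed an unadjusted p of 0.05 and 1.5-fold. That count was 178 (90 higher in cKO) in the fit as reported. It was 104 (59 higher) without probe sets under the 60th percentile, 857 (579) without WT mice 1 and 2, 400 (158) on the arrays of high and 763 (390) on those of low Y-coded signal alone, and 25 (13) at 2-fold, and with the Y-coded signal as a covariate 141 were higher. Leaving out 1 mouse gave 156 to 401 (65 to 254 higher), with 271 (146) without cKO mouse 6, 295 (167) without WT mouse 1 and 401 (254) without WT mouse 2. The 1 call at an adjusted p of 0.05 became 3 with the component and 2 with the Y-coded signal as a covariate, 1 to 2 with 1 mouse left out (2 without WT mouse 4), and 0 on the arrays of high signal, where 731 had an unadjusted p under 0.05 in limma.

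The mean correlation among the 5 genes in cKO was 0.499 without the 2 mice farthest from the median of their mean. It was 0.783 to 0.931 with 1 mouse left out. In WT it was 0.691 by Spearman, -0.105 without the 2 farthest mice and 0.889 to 0.962 with 1 left out. The r of their mean with the first component in cKO, 0.651, was -0.339 without the 2 farthest mice, 0.508 with probe sets scaled to unit variance, 0.946 with X- and Y-coded probe sets included, 0.863 with the component of cKO alone, 0.902 with bright probe sets only, and 0.134 (without mouse 6) to 0.871 (without mouse 2) with 1 mouse left out. In WT, 0.926 became 0.664 with X- and Y-coded probe sets, 0.985 with bright ones, and 0.689 (without mouse 2) to 0.987 (without mouse 3). The cause of these shifts was not tested. With 6 mice a genotype, a correlation in 4 of them has little precision.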

Other observations

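Slc2a1 ran against the 5 genes among WT mice. It was 18.10, 17.76, 18.31, 17.77, 17.93 and 17.95 in cKO mice 1 to 6, against 19.09, 18.86, 19.23, 19.23, 19.24 and 19.31 in WT mice 1 to 6. WT mice 1 and 2, highest in the 5 genes, were thus lowest in Slc2a1, by 0.14 or more. Its r with the mean of the 5 genes was 0.18 in cKO and -0.92 in WT (rho of 0.09 in cKO and -0.52 in WT, n = 6 mice each). In WT 1.28% of 20866 autosomal probe sets had an r as low. Without the 2 mice farthest from the median r was 0.22 in cKO and 0.09 in WT, so the WT value rests on mice 1 and 2. This relation was noticed in the data and is given with no test. The probe set is among the brightest of the array, and whether its signal is still proportional to RNA at that level was not tested.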
